A study of Mus musculus with 42 samples.

Results

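The classical cadherins, the non-clustered protocadherins and the Fat cadherins were followed across cultures and tissues of *Fmr1*KO and WT mice. Their genes were chosen by symbol alone, Cdh or Pcdh with a number or *Fat1* to *Fat4*, which gave 36 genes of 18193 measured by probe sets of a single gene. The 36 genes had 75 probe sets, of 34945 in all, and each gene was read on the probe set with the highest mean over the 42 arrays. The untreated samples were cultures of hippocampus and of cortex and the primary hippocampus and primary cortex themselves, each from *Fmr1*KO and from WT mice on the C57BL/6 background, with 5 arrays per genotype and 6 in primary hippocampus. *Fmr1*KO mice lack FMRP, the RNA-binding protein that is lost in fragile X syndrome, in every cell. Embryos of a litter were pooled at 17 to 18 days post-conception, part of the tissue was kept, and the rest was cultured for 14 days in Neurobasal medium with B27. Cultures held neurons and glia, and tissues held every cell type of the dissected region. In such mixtures, fewer cells of a type and less RNA per cell cannot be told apart.

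Cadherins are calcium-dependent adhesion proteins that bind partners of their own kind or of related kinds on the neighbouring cell. The tails of type I and type II classical cadherins bind catenins, which tie the junction to actin, and combinations of type II cadherins mark neuronal nuclei, layers and synaptic partners. Non-clustered protocadherins adhere weakly and signal through other tails, and several recruit the WAVE complex, a regulator of branched actin. Fat cadherins are very large, and *Fat4* binds *Dchs1* on the next cell in planar polarity and growth control.

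Levels were log2 values, on which 1 unit is a 2-fold difference, and they were compared within a gene only. *Fmr1* averaged 8.01 in *Fmr1*KO and 8.96 in WT hippocampal culture and 8.07 in *Fmr1*KO and 8.97 in WT cortical culture. In tissue it averaged 9.00 in *Fmr1*KO and 9.93 in WT primary hippocampus and 8.93 in *Fmr1*KO and 9.92 in WT primary cortex, and the genotypes overlapped on no array of any system. Arrays correlated at 0.9859 to 0.9973 with the mean of the rest of their group, and no pair of arrays held identical values. The mean of the 10 mature neuron markers was 9.67 to 10.59 on the arrays of hippocampal culture and 9.26 to 9.97 in cortical culture. In the tissues it was 7.39 to 7.91 (hippocampus) and 8.00 to 8.40 (cortex). Among them *Grin2a* was at background in all 4 systems and *Slc17a7* in both tissues.

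Most of the brain cadherins were detected in these samples and the epithelial ones were not. A gene counted as detected in a group where its mean passed 5.17, the 95th percentile of 121 probe sets of olfactory, vomeronasal and keratin-associated genes. By this measure 26 of the 36 genes were detected in at least 1 of the 8 groups and 19 in all 8. Of all genes, 65.5% had a mean over all arrays above 5.17. That share does not use group means, so the counts of the family cannot be set against it. Of 5 type I cadherins, *Cdh2* (N-cadherin, of neuroepithelial and synaptic junctions) and *Cdh4* (R-cadherin) were detected everywhere. *Cdh15* (M-cadherin, of muscle) passed in 1 group only, and *Cdh1* and *Cdh3* (E- and P-cadherin, of epithelia) did not pass. Of 11 type II cadherins, 9 were detected in some group and *Cdh6*, *Cdh8*, *Cdh9*, *Cdh10* and *Cdh11* in all 8, while *Cdh18* and *Cdh19* were at background. Of 5 cadherins outside these types, only *Cdh13* (T-cadherin, held in the membrane by a lipid anchor instead of a tail) was detected. *Cdh16* of kidney, *Cdh17* of intestine, *Cdh23* of the inner ear and *Cdh26* were not. Of 11 protocadherins, 8 were detected in all groups and *Pcdh15* in 4 of them, and *Pcdh1* and *Pcdh12* were not. *Fat1*, *Fat3* and *Fat4* were detected in all 8 groups, and *Fat2*, known from cerebellar granule cells, in 1.

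The first question was how the family in cultured neurons differed from that in the tissue they came from. The cells of the cultures were also 14 days older than the tissue. In every comparison of culture with tissue, here and below, culture and age cannot be told apart. Most non-clustered protocadherins were higher in both cultures, *Cdh13* and *Cdh22* rose with them, and *Pcdh18*, *Fat4* and *Cdh7* were lower in both. Between hippocampal culture and primary hippocampus, 25 of 36 genes passed an adjusted p under 0.05 in limma, 18 higher and 7 lower, where 72.1% of all genes passed, 35.9% higher and 36.2% lower. Between cortical culture and primary cortex 28 passed, 19 higher and 9 lower, against 71.2% of all genes, 35.3% higher and 35.9% lower. At 2-fold or more, 13 genes passed in hippocampus, where 19.4% of all genes did, and 10 in cortex, where 18.1% did. With undetected values raised to the background level these counts were 11 and 9. The median size of the difference over the 36 genes was 0.65 in hippocampus and 0.63 in cortex, against 0.32 over all genes in each. The arrays of the culture and the tissue did not overlap for 15 genes in hippocampus and for 12 in cortex. Overlap was not counted over all genes, so these counts have no share to be set against. Both comparisons called the same direction in 14 genes that were higher and 6 that were lower, and opposite directions in *Cdh11* and *Pcdh15*. The 14 include *Cdh16*, *Cdh17*, *Cdh26* and *Pcdh1*, and the 6 include *Cdh1* and *Pcdh12*, none of which was detected in any group. The counts of 25 and 28 above include these undetected genes too.

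**Figure D1:**
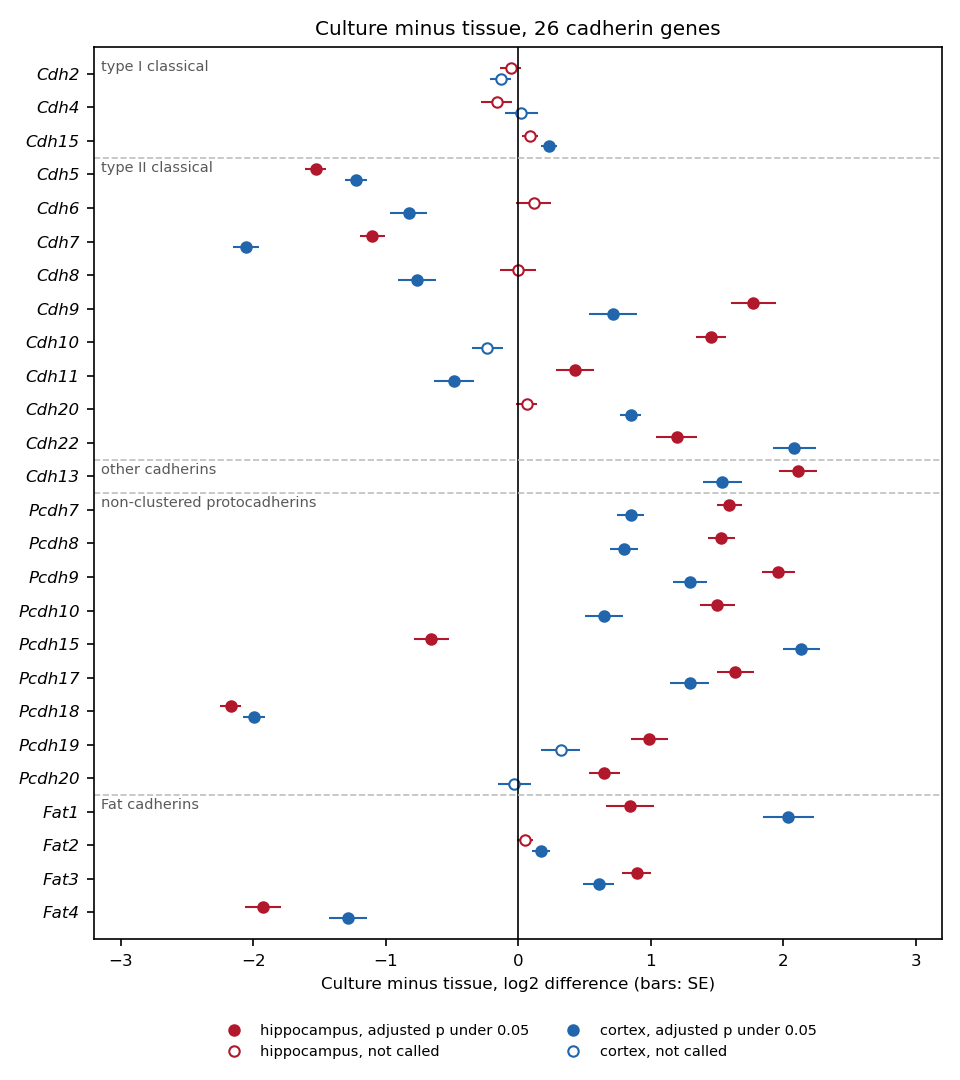
The culture minus tissue difference of each of the 26 detected genes on the log2 scale (x axis) for hippocampus (red) and cortex (blue), with bars of 1 SE, filled points at an adjusted p under 0.05, and dashed lines between the groups of the family. Most protocadherins lie right of 0 in both regions, *Pcdh18*, *Fat4*, *Cdh7* and *Cdh5* lie left of 0 in both, and *Pcdh15* lies on opposite sides.

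Of the 11 protocadherins, 8 were higher and 3 lower in hippocampal culture, and 7 were higher and 2 lower in cortical culture. These counts include *Pcdh1* as higher and *Pcdh12* as lower in both cultures, though neither was detected in any group. *Pcdh9*, a protocadherin of neurons, read 9.60, 10.15 and 10.71 (lowest, median and highest array) in hippocampal culture, against 7.56, 8.16 and 8.66 in primary hippocampus. It read 10.64, 11.23 and 11.61 in cortical culture and 9.38, 9.88 and 10.39 in primary cortex, so that neither culture overlapped with its tissue. The differences were 1.96 ± 0.13 (SE, adjusted p = 5.51e-17) and 1.30 ± 0.13 (adjusted p = 2.8e-11), or 3.90-fold and 2.46-fold. *Pcdh17*, which acts in presynaptic assembly in mice, read 9.96, 10.57 and 11.18 in hippocampal culture, against 8.46, 8.91 and 9.60 in primary hippocampus. It was 1.64 ± 0.14 higher there (adjusted p = 4.73e-13) and 1.29 ± 0.15 higher in cortical culture (adjusted p = 7.85e-10). In cortex a single array of primary cortex, at 9.47, reached the lowest culture array, at 9.44. *Pcdh7*, *Pcdh8* and *Pcdh10* were higher by 1.60, 1.53 and 1.50 in hippocampal culture and by 0.85, 0.80 and 0.65 in cortical culture. *Pcdh8* is induced by synaptic activity and *Pcdh10* binds the WAVE complex. *Pcdh19*, an X-linked partner of N-cadherin, was 0.99 ± 0.14 higher in hippocampal culture (adjusted p = 1e-07), and its difference in cortical culture was 0.32 ± 0.15 and was not called. *Pcdh20* was likewise called in hippocampal culture alone, at 0.65 ± 0.12. The mature neuron markers moved beside these genes, with 10 of 10 higher in hippocampal culture and 9 of 10 higher and 1 lower in cortical culture, and their part in the protocadherin differences was not tested.

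*Cdh13* rose most of the cadherins in hippocampal culture. It read 8.66, 9.37 and 10.24 in hippocampal culture, against 7.03, 7.22 and 7.84 in primary hippocampus, and 10.38, 11.02 and 11.33 in cortical culture, against 9.26, 9.41 and 9.53 in primary cortex. Neither pair of groups overlapped, and the differences were 2.11 ± 0.14 (4.32-fold, adjusted p = 2.33e-16) and 1.54 ± 0.15 (2.91-fold, adjusted p = 7.21e-12). *Cdh22*, a type II cadherin of the brain, read 5.88, 6.20 and 7.57 in hippocampal culture, against 4.89, 5.18 and 5.50 in primary hippocampus. In cortical culture it read 6.57, 7.15 and 7.76, against 4.69, 5.02 and 5.65 in primary cortex, whose mean was below background. The cortical difference was therefore at least 3.70-fold (fitted difference 2.08 ± 0.16, adjusted p = 2.31e-14), and the hippocampal one was 1.20 ± 0.16 (adjusted p = 1.14e-08). *Cdh9*, which helps to match dentate granule cells with CA3 neurons in mice, was 1.78 ± 0.17 higher in hippocampal culture (adjusted p = 9.46e-12) and 0.72 ± 0.18 higher in cortical culture (adjusted p = 0.000648). It read 8.11, 8.40 and 9.62 in hippocampal culture, against 6.49, 6.88 and 7.59 in primary hippocampus.

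*Pcdh18* showed the largest fall of the family in hippocampal culture. It read 5.17, 5.37 and 5.62 in hippocampal culture, against 7.25, 7.55 and 7.79 in primary hippocampus, a difference of -2.17 ± 0.08 (4.50-fold lower, adjusted p = 1.26e-24). In cortical culture it read 5.48, 5.99 and 6.28, against 7.66, 7.98 and 8.13 in primary cortex (-1.99 ± 0.08, 3.98-fold lower, adjusted p = 8.93e-23). Every culture array lay below every tissue array, and the arrays of hippocampal culture lay close to the background level. *Fat4* read 7.52, 8.66 and 9.10 in hippocampal culture, against 10.10, 10.48 and 10.75 in primary hippocampus (-1.93 ± 0.14, 3.80-fold lower, adjusted p = 1.12e-15). It read 8.46, 8.76 and 9.24 in cortical culture, against 9.81, 10.01 and 10.42 in primary cortex (-1.28 ± 0.14, 2.44-fold lower, adjusted p = 2.87e-10). *Dchs1*, the ligand of *Fat4*, was lower too, by 0.71 in hippocampal culture and 0.62 in cortical culture, as differences on the log2 scale. *Cdh7*, a type II cadherin, read 4.54, 4.69 and 4.98 in hippocampal culture and 4.29, 4.52 and 4.91 in cortical culture, all below background, against 5.17, 5.80 and 6.22 in primary hippocampus and 6.25, 6.54 and 6.82 in primary cortex. Its fall was at least 1.56-fold in hippocampus and at least 2.67-fold in cortex. Radial glia and progenitor markers were lower beside these genes, 10 of 10 in hippocampal culture and 6 of 10 in cortical culture, where 3 were higher. The mean of these 10 markers was 7.42 to 8.04 in hippocampal culture and 7.67 to 8.15 in cortical culture, against 9.99 to 10.36 in primary hippocampus and 9.11 to 9.79 in primary cortex. Markers of dividing cells were lower as well, 9 of 9 in each culture (6.57 to 8.04 in hippocampal culture and 7.16 to 8.74 in cortical culture, against 9.43 to 10.01 in primary hippocampus and 8.93 to 9.76 in primary cortex). Immature neuron markers were also lower, 8 of 9 in each culture, where 1 was higher in hippocampal culture. Their mean was 9.81 to 10.76 in hippocampal culture, against 11.92 to 12.11 in primary hippocampus. In cortical culture it was 9.845 to 10.28, against 11.92 to 12.05 in primary cortex. Microglia markers were lower in 7 of 9 in each culture, 1 was higher in cortical culture, and 7 of 9 were at background in each culture. The part of these cells in the falls of *Pcdh18*, *Fat4* and *Cdh7* was not tested.

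*Cdh5*, the VE-cadherin of endothelial junctions, was at background in both cultures, at 3.79, 3.99 and 4.09 in hippocampal culture and 3.66, 3.96 and 4.25 in cortical culture. It read 5.10, 5.55 and 5.92 in primary hippocampus, where it was detected, and 4.97, 5.16 and 5.34 in primary cortex, at the background level. The fall was at least 1.27-fold in hippocampus and has no fold in cortex, and the fitted differences were -1.53 ± 0.08 (adjusted p = 1.29e-19) and -1.22 ± 0.08 (adjusted p = 5.33e-16). *Pcdh12*, another endothelial member, was below background in all 4 systems. Of the 8 endothelial markers, 7 were lower in each culture, with an array mean of 4.55 to 4.81 in hippocampal culture and 4.40 to 4.63 in cortical culture, against 6.13 to 6.45 in primary hippocampus and 5.96 to 6.19 in primary cortex. In both cultures 6 of the 8 were at background (*Pecam1*, *Cldn5*, *Flt1*, *Tek*, *Tie1* and *Emcn*). Of these, *Pecam1*, *Tie1* and *Emcn* were at background in both tissues too. The part of endothelial cells in the fall of *Cdh5* was not tested.

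Promoter windows of RefSeq (GRCm38.p6, 250 bases before to 50 after a start) were found for 24 of the 36 genes, and not for *Cdh13*, *Cdh5* or *Cdh11*. The windows of 4 genes are printed because they stand for the patterns of the family. *Pcdh17* and *Cdh22* were higher in both cultures, *Pcdh18* was lower in both, and *Pcdh20* was higher in hippocampus than in cortex in both culture and tissue. Each is read 5′ to 3′ on the strand of its gene, with the CCAAT box (CCAAT or its reverse complement ATTGG) and the GC box (GGGCGG or CCGCCC) in capitals. No 2 motifs overlapped. The window of *Pcdh17* lies at chr14:84443313-84443612 on the plus strand, *Cdh22* at chr2:165234688-165234987, *Pcdh18* at chr3:49757267-49757566 and *Pcdh20* at chr14:88471347-88471646, all 3 on the minus strand.
Pcdh17: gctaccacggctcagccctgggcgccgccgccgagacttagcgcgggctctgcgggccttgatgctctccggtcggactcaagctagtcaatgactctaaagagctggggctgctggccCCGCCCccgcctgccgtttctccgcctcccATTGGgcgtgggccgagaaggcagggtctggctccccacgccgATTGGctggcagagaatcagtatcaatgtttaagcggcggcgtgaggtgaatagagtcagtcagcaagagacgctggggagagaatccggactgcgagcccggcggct
Cdh22: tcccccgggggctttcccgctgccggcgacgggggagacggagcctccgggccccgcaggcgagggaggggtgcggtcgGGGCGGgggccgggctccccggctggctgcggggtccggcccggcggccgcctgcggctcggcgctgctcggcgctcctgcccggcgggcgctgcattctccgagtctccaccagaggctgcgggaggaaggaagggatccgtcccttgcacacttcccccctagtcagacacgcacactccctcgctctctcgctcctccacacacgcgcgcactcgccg
Pcdh18: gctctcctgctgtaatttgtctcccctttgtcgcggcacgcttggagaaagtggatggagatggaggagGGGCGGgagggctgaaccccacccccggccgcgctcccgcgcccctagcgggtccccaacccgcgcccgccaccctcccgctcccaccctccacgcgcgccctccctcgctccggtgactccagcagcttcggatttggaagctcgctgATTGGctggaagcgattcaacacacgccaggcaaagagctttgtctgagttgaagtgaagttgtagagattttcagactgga
Pcdh20: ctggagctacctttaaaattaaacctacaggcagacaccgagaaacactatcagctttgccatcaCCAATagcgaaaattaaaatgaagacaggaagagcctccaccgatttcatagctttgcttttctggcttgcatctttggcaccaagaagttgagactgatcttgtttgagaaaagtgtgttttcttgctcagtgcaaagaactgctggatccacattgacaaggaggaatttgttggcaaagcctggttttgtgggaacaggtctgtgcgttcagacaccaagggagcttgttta
The *Pcdh17* window held 2 CCAAT boxes and 1 GC box, that of *Cdh22* a GC box alone, that of *Pcdh18* 1 of each, and that of *Pcdh20* a CCAAT box alone. Among all 32851 windows of this length, 37.4% held a CCAAT box and 35.7% a GC box, so that matches of either kind were common. Among 27 windows of the family the shares were 63.0% and 29.6%. The windows of *Pcdh17*, *Cdh22* and *Pcdh18* held 26, 38 and 23 CpG pairs and that of *Pcdh20* held 4, against a median of 13 in the family and 7 over all windows. These are counts of letters, and the data hold no measure of binding or methylation at these windows.

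**Figure D2:**
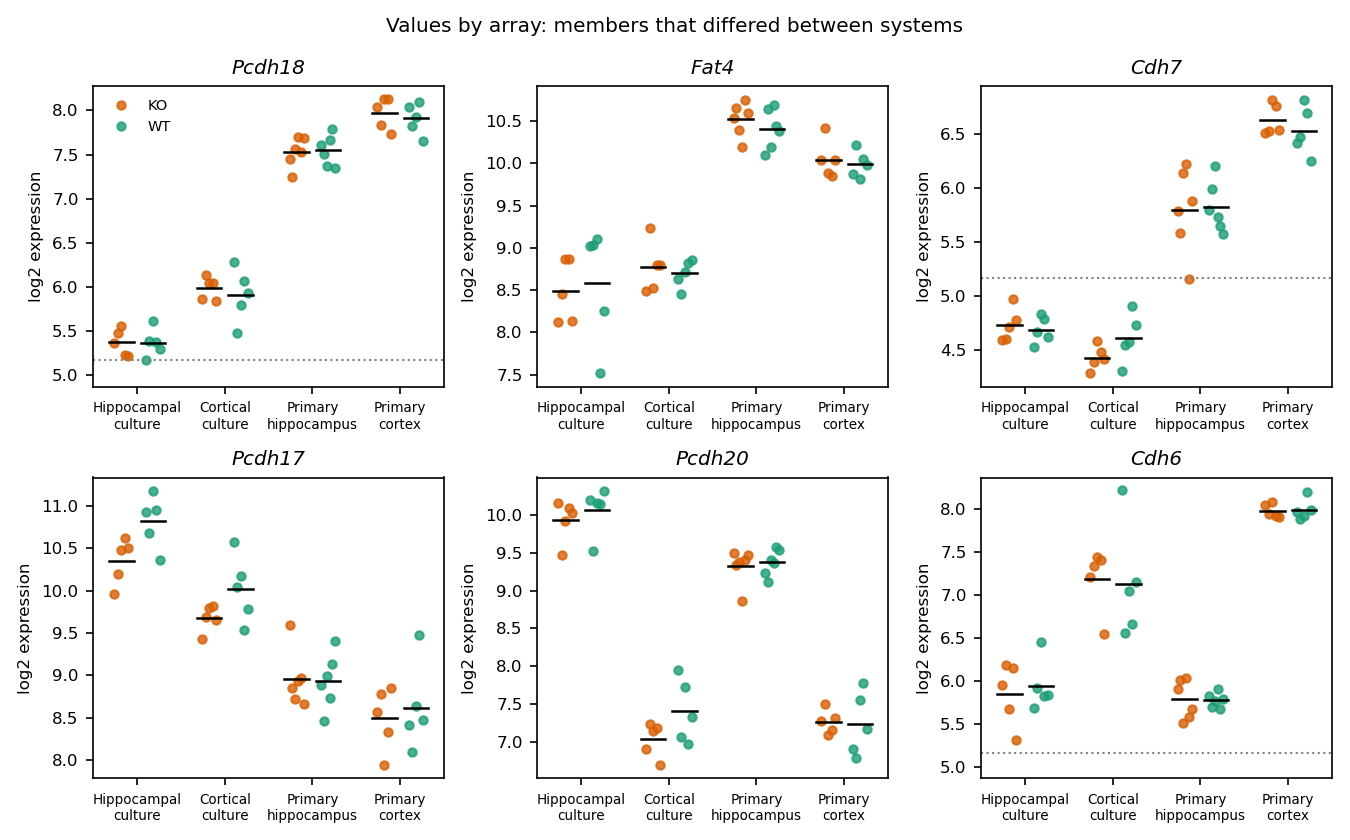
The log2 expression (y axis, a scale of its own in each panel) of 6 genes on each array in the 4 systems (x axis), with *Fmr1*KO arrays in orange, WT arrays in green, a black line at each group mean, and a dotted line at the background level where the panel reaches it. *Pcdh18*, *Fat4* and *Cdh7* sit lower in both cultures, *Pcdh17* sits higher in both, and *Pcdh20* and *Cdh6* separate hippocampus from cortex.

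The type I cadherins of the brain differed little. *Cdh2* read 11.20, 11.55 and 11.90 in hippocampal culture and 11.38, 11.67 and 12.24 in cortical culture, against 11.56, 11.60 and 11.78 in primary hippocampus and 11.78, 11.86 and 11.95 in primary cortex. Its culture minus tissue differences were -0.06 and -0.13, neither was called, and the groups overlapped. *Cdh4* differed by -0.16 and 0.02 and was not called either. Among the Fat cadherins, *Fat1* was 0.84 ± 0.18 higher in hippocampal culture (adjusted p = 0.000115) and 2.04 ± 0.19 higher in cortical culture (adjusted p = 4.98e-12). It read 10.40, 11.47 and 12.14 in cortical culture, against 9.04, 9.26 and 9.47 in primary cortex, with no overlap. *Fat3* was higher by 0.90 ± 0.11 in hippocampal culture and by 0.61 ± 0.11 in cortical culture, with some overlap of arrays in each. *Fat4*, in contrast, was lower in both cultures. Astrocyte markers were higher beside *Fat1* and *Fat3*, 6 of 9 in hippocampal culture, where 1 was lower, and 9 of 9 in cortical culture. Their mean was 9.10 to 9.58 in hippocampal culture, against 7.82 to 8.35 in primary hippocampus, and 8.91 to 9.54 in cortical culture, against 6.93 to 7.31 in primary cortex. *Gfap* was at background in primary cortex and *Aqp4* and *S100b* in both tissues, and the part of astrocytes in the differences of *Fat1* and *Fat3* was not tested.

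The second question was which members separated hippocampus from cortex, first in the tissue. In primary hippocampus against primary cortex, 18 of 36 genes passed an adjusted p under 0.05, 6 higher and 12 lower, where 36.4% of all genes passed, 19.7% higher and 16.7% lower. At 2-fold or more 7 passed, 2 higher and 5 lower, against 3.89% of all genes (2.53% higher and 1.36% lower), and 6 with undetected values raised to background. The arrays of the regions did not overlap for 10 genes, with no such count over all genes. The median size of the difference was 0.26 over the 36 genes and 0.11 over all genes.

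*Cdh6*, *Cdh13*, *Pcdh9* and *Pcdh10* were lower in hippocampus and *Pcdh20* was higher, and all 5 kept this direction in culture. *Cdh6*, a type II cadherin that marks territories of the developing cortex, read 5.51, 5.78 and 6.04 in primary hippocampus, against 7.88, 7.95 and 8.19 in primary cortex. The difference was -2.20 ± 0.13 (4.60-fold lower, adjusted p = 1.89e-16). *Cdh13*, with the tissue values given above, was lower by 2.09 ± 0.14 (4.25-fold, adjusted p = 4.94e-15). *Pcdh9* was lower by 1.70 ± 0.13 (adjusted p = 6e-14) and *Pcdh10* by 1.50 ± 0.14 (adjusted p = 1.22e-11). *Pcdh10* read 5.65, 6.53 and 7.12 in primary hippocampus, against 7.52, 8.13 and 8.34 in primary cortex. *Pcdh20* went the other way, at 8.87, 9.39 and 9.57 in primary hippocampus, against 6.78, 7.22 and 7.78 in primary cortex (2.10 ± 0.12, 4.28-fold, adjusted p = 2.93e-17). None of these 5 genes overlapped between the tissues. Smaller falls without overlap were those of *Cdh10* (-1.05 ± 0.11), *Pcdh7* (-0.90 ± 0.10) and *Cdh7* (-0.77 ± 0.09). Among the Fat cadherins, *Fat1* was higher in primary hippocampus by 0.78 ± 0.18 and *Fat4* by 0.45 ± 0.14.

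Markers of several cell types differed beside these genes. Of the inhibitory neuron markers 8 of 9 were lower in primary hippocampus, with an array mean of 6.31 to 8.12, against 7.68 to 8.52 in primary cortex, and all 9 were above background in both. Of the mature neuron markers 4 of 10 were lower and 1 higher. Higher in primary hippocampus were 8 of 10 radial glia markers (mean 9.99 to 10.36, against 9.11 to 9.79 in primary cortex) and 6 of 9 markers of dividing cells (9.43 to 10.01, against 8.93 to 9.76). So were 6 of 9 astrocyte markers, where 1 was lower, and 7 of 9 microglia markers (5.82 to 6.51, against 5.45 to 5.70). The microglia markers *Aif1* and *Tmem119* were at background in both tissues, and *C1qb*, *C1qc* and *Cd68* in primary cortex. Of the meninges markers 8 of 9 were higher (5.44 to 6.32 in primary hippocampus, against 4.56 to 5.10 in primary cortex), though *Lum*, *Foxd1*, *Aldh1a2* and *Slc22a6* were at background in both. Of the choroid plexus markers 8 of 10 were higher (5.61 to 7.10, against 4.16 to 5.37), by up to 5.93 on the log2 scale, though *Kcne2*, *Kl*, *Aqp1*, *Cldn2* and *Slc4a5* were at background in both. The part of these cells in the region differences was not tested.

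In culture, 15 of 36 genes passed between hippocampal culture and cortical culture, 5 higher and 10 lower, where 28.2% of all genes passed, 14.7% higher and 13.5% lower. At 2-fold or more 5 passed, 1 higher and 4 lower, against 2.48% of all genes (1.28% higher and 1.2% lower). Arrays did not overlap for 5 genes, again with no count over all genes. The median size of the difference was 0.20 over the 36 genes and 0.10 over all genes. Of the genes called in both preparations, 2 were higher in hippocampus in both (*Pcdh17* and *Pcdh20*) and 5 were lower in both (*Cdh6*, *Cdh13*, *Pcdh9*, *Pcdh10* and *Pcdh18*). *Pcdh20* read 9.47, 10.12 and 10.32 in hippocampal culture, against 6.70, 7.17 and 7.95 in cortical culture, a difference of 2.78 ± 0.12 (6.87-fold, adjusted p = 1.33e-19). *Cdh13* was lower by 1.52 ± 0.15 (adjusted p = 1.84e-10), with no overlap. *Cdh6* read 5.31, 5.88 and 6.46 in hippocampal culture, against 6.55, 7.18 and 8.22 in cortical culture (-1.26 ± 0.14, adjusted p = 3.72e-09). *Pcdh9* was lower by 1.03 ± 0.13 (adjusted p = 8.09e-08), and a few of its arrays overlapped. All 9 inhibitory neuron markers were lower in hippocampal culture, with an array mean of 6.79 to 7.95, against 7.94 to 8.58 in cortical culture, and *Dlx2* was at background in hippocampal culture. All 9 markers of dividing cells were lower too (6.57 to 8.04, against 7.16 to 8.74), with *Aurkb* at background in hippocampal culture, and 5 of 10 radial glia markers were lower and 1 higher. Of the mature neuron markers 7 of 10 were higher. Of the choroid plexus markers 4 of 10 were higher (5.14 to 6.01 in hippocampal culture, against 4.46 to 4.96 in cortical culture), by up to 5.94. *Ttr* and *Cldn2* were at background in cortical culture, and *Otx2*, *Kcne2*, *Kl*, *Aqp1* and *Slc4a5* in both cultures. The part of these cells in the differences between the cultures was not tested.

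**Figure D3:**
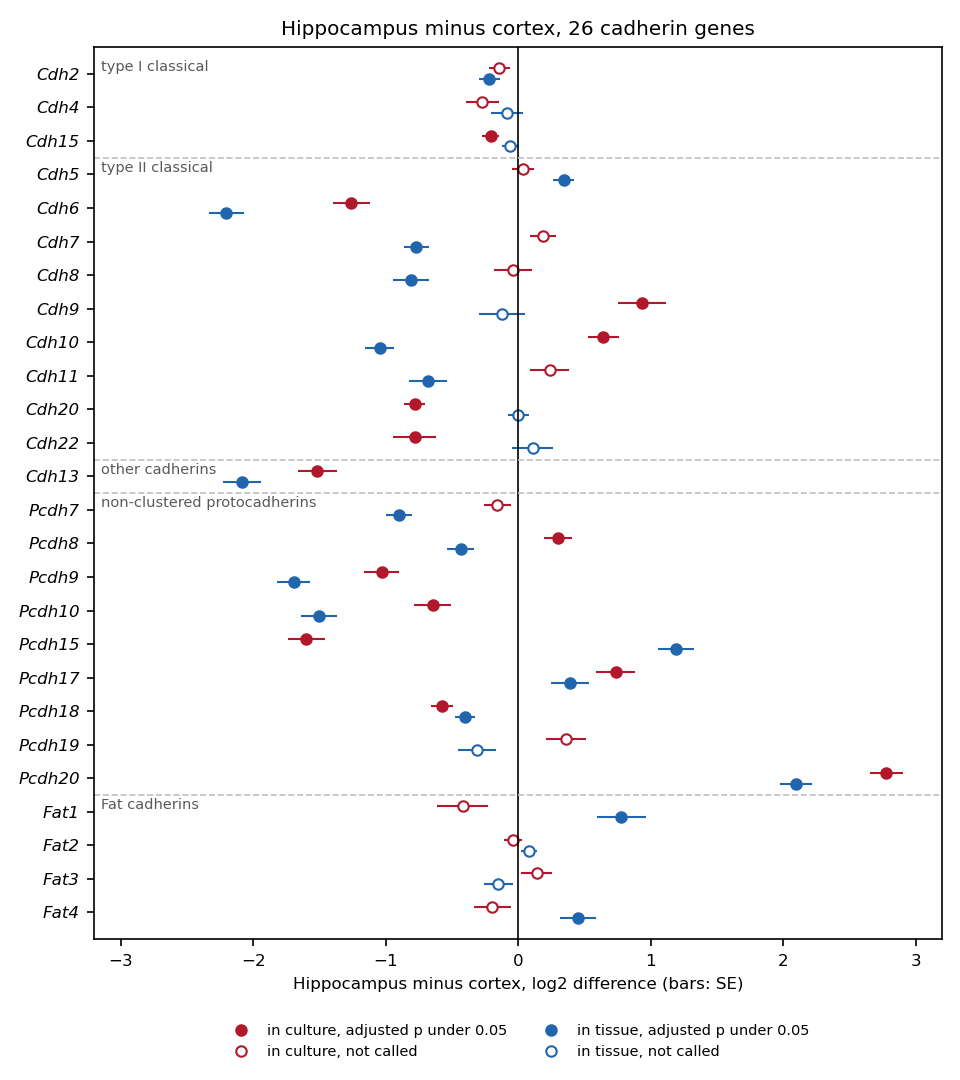
The hippocampus minus cortex difference of each of the 26 detected genes on the log2 scale (x axis) in culture (red) and in tissue (blue), with bars of 1 SE and filled points at an adjusted p under 0.05. *Pcdh20* lies far to the right and *Cdh6*, *Cdh13* and *Pcdh9* far to the left in both, while *Pcdh15*, *Cdh10* and *Pcdh8* change sides.

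The third question was whether the region difference itself changed in culture, tested as the region difference in culture minus that in tissue. It did for 19 of 36 genes at an adjusted p under 0.05, 13 in the positive and 6 in the negative direction, where 32% of all genes passed, 14.9% and 17.1%. At 1 log2 unit or more 4 genes passed (*Pcdh15*, *Cdh10*, *Fat1* and *Cdh9*), against 5.07% of all genes. *Pcdh15*, *Cdh10* and *Pcdh8* were called in opposite directions in culture and in tissue. Among the markers, 9 of 9 of dividing cells and 8 of 10 of radial glia changed in the negative direction and 6 of 10 of mature neurons in the positive one, and their part in these changes was not tested.

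*Pcdh15*, known with *Cdh23* from the tip links of inner ear hair cells, had the largest fitted change. It read 4.49, 4.99 and 5.31 in hippocampal culture, against 5.88, 6.38 and 7.28 in cortical culture, and 5.24, 5.57 and 5.91 in primary hippocampus, against 3.90, 4.34 and 4.77 in primary cortex. The means of hippocampal culture and of primary cortex were below background. It was thus at least 2.50-fold lower in hippocampal culture than in cortical culture (adjusted p = 1.04e-11) and at least 1.33-fold higher in primary hippocampus than in primary cortex (adjusted p = 2.51e-09), and arrays overlapped in neither. In cortical culture it was at least 2.56-fold higher than in primary cortex (adjusted p = 1.21e-16), and in hippocampal culture at least 1.30-fold lower than in primary hippocampus (adjusted p = 4.29e-05). The fitted change of the region difference was -2.79 ± 0.19 (adjusted p = 5.97e-14), and with undetected values raised to background its size was at least 1.74.

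*Cdh20* and *Cdh22*, both type II cadherins, were also higher in cortical culture. *Cdh20* read 4.73, 5.04 and 5.33 in hippocampal culture, below background on average, against 5.46, 5.76 and 6.38 in cortical culture (at least 1.54-fold lower, adjusted p = 9.78e-10), and was at background in both tissues. *Cdh22* was lower in hippocampal culture than in cortical culture by 0.78 ± 0.16 (adjusted p = 0.000303) and differed by 0.11 between the tissues, which was not called. The oligodendrocyte lineage markers moved beside *Pcdh15*, *Cdh20* and *Cdh22*, with 7 of 7 lower in hippocampal culture than in cortical culture. Their mean was 5.85 to 6.19 on the arrays of hippocampal culture, against 7.00 to 8.10 in cortical culture, and 5.88 to 6.64 in primary hippocampus, against 6.08 to 6.81 in primary cortex. *Olig2* and *Gpr17* were at background in hippocampal culture and *Gpr17* alone in the other 3 systems. *Olig2* averaged 4.87 in hippocampal culture and 8.65 in cortical culture, and *Pdgfra* averaged 5.52 in hippocampal culture and 8.91 in cortical culture. The part of these cells in the differences of *Pcdh15*, *Cdh20* and *Cdh22* was not tested.

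**Figure D4:**
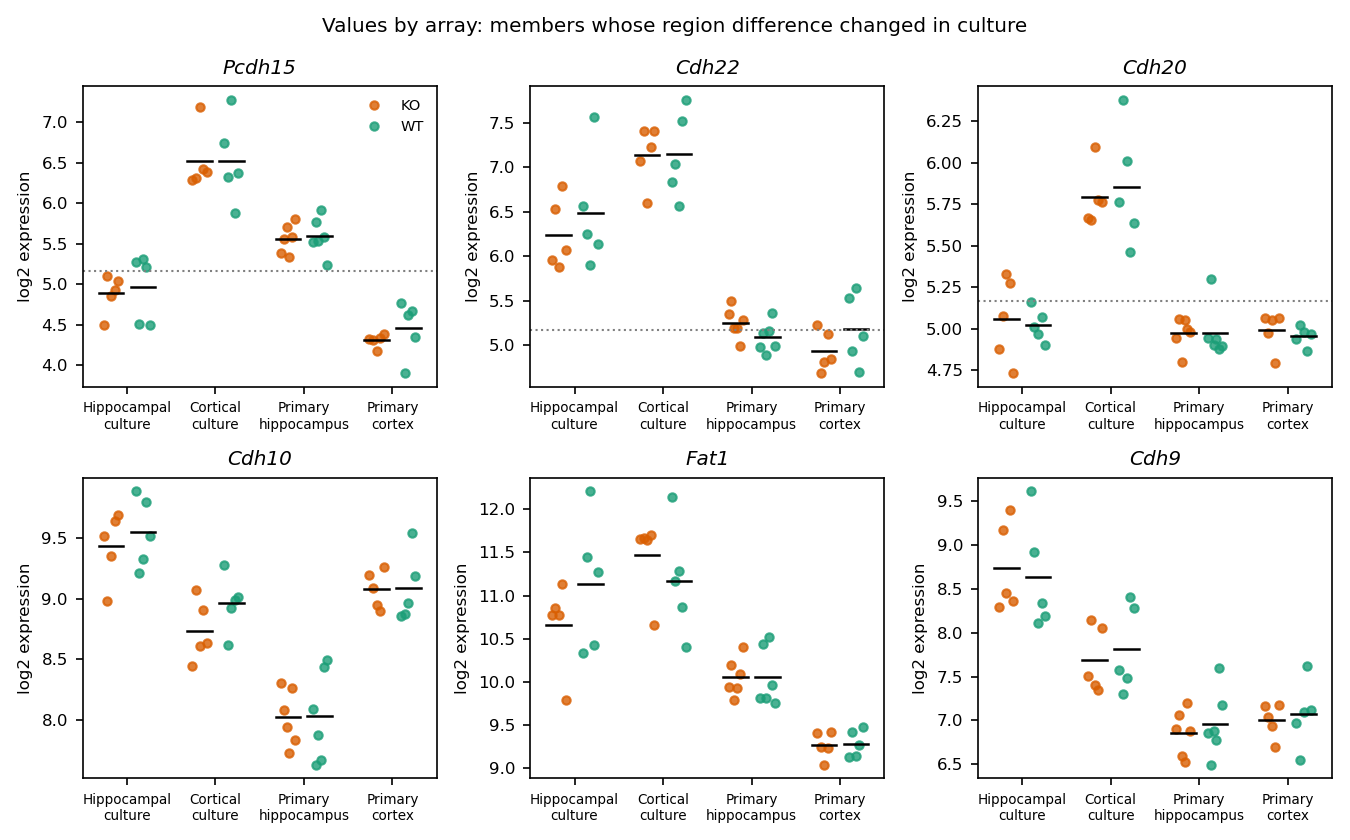
The log2 expression (y axis, a scale of its own in each panel) of 6 genes on each array in the 4 systems (x axis), with *Fmr1*KO arrays in orange, WT arrays in green, black lines at group means and a dotted line at the background level where the panel reaches it. *Pcdh15* and *Cdh20* stand above the line in all arrays of cortical culture, and *Cdh10* is higher in hippocampal culture than in cortical culture but lower in primary hippocampus than in primary cortex.

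*Cdh10* turned in the opposite sense to *Pcdh15*. It read 8.98, 9.51 and 9.88 in hippocampal culture, against 8.45, 8.91 and 9.27 in cortical culture, a difference of 0.64 ± 0.12 (adjusted p = 5.12e-05) with some overlap. In the tissues it read 7.64, 8.02 and 8.50 in primary hippocampus, against 8.86, 9.02 and 9.54 in primary cortex, with none (-1.05 ± 0.11, adjusted p = 9.84e-10). The change of the region difference was 1.69 ± 0.16 (adjusted p = 2.35e-10). *Cdh10* rose in hippocampal culture by 1.46 ± 0.11 against primary hippocampus, and its cortical difference of -0.23 was not called. *Cdh9* gained a region difference, at 0.94 ± 0.18 in culture (adjusted p = 0.000109) and -0.12 in tissue, where it was not called (change 1.06 ± 0.25, adjusted p = 0.00116). *Fat1* lost one, at -0.42 in culture, where it was not called, and 0.78 ± 0.18 in tissue (change -1.20 ± 0.27, adjusted p = 0.000639). *Pcdh8* was 0.30 ± 0.11 higher in hippocampal culture and 0.43 ± 0.10 lower in primary hippocampus than in the cortical samples of each preparation. Of 11 type II cadherins 9 passed this test, 6 in the positive and 3 in the negative direction, and of 11 protocadherins 7 passed, 6 and 1. No type I cadherin passed.

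Where a called gene had another detected probe set, that probe set had the same sign in 22 of 22 cases for hippocampal culture against primary hippocampus and in 19 of 20 for cortical culture against primary cortex. The counts were 24 of 24 between the tissues, 17 of 17 between the cultures and 21 of 23 for the change of the region difference. For *Fmr1*KO against WT they were 7 of 7 in hippocampal culture and 3 of 3 in cortical culture. Of these, 2 of the 7 and 2 of the 3 had an unadjusted p under 0.05 in limma. *Fat3*, described below, had 1 probe set only. These arrays read the 3′ ends of transcripts, and isoforms with other ends are not measured.

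The last question was whether *Fmr1*KO samples differed from WT samples. No member passed an adjusted p under 0.05 in limma in any system, where 0.0055% to 0.0165% of all genes did. At an unadjusted p under 0.05, the threshold of the study, 6 of 36 genes were called in hippocampal culture (9.54% of all genes). Cortical culture had 2 (10.2% of all genes), primary hippocampus 1 (1.54%) and primary cortex 0 (1.66%). These p-values used 1 spread per probe set shared by all 8 groups, though spreads differed between groups. *Cdh13* had an SD of 0.575 in *Fmr1*KO and 0.521 in WT hippocampal culture, against 0.244 and 0.277 in primary hippocampus. *Pcdh10* went the other way, at 0.089 and 0.15, against 0.386 and 0.433. The counts and shares of cultures and tissues therefore cannot be set against each other as a measure of the genotype effect. Both genes called in cortical culture were lower in *Fmr1*KO, where 4.05% of all genes were called lower. In hippocampal culture 5 of the 6 were lower in *Fmr1*KO, where 2.67% of all genes were called lower, and 1 was higher, against 6.87%. No gene of the family had *Fmr1*KO and WT arrays that did not overlap in any system, a count not made over all genes. The median size of the difference over the 36 genes was 0.09 and 0.10 in hippocampal and cortical culture and 0.06 in each tissue, against 0.08, 0.08, 0.04 and 0.04 over all genes.

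*Fat3*, a Fat cadherin that shapes the dendrites of retinal amacrine cells in mice, had the smallest p. It read 10.28, 9.79, 9.94, 10.26 and 10.26 in *Fmr1*KO hippocampal culture, against 10.51, 10.25, 10.92, 11.28 and 10.87 in WT hippocampal culture. Only the lowest WT array fell among the *Fmr1*KO arrays. The difference was -0.66 ± 0.16 (1.58-fold lower, unadjusted p = 0.000238), and it ranged from -0.79 to -0.53 when each array was left out, with an unadjusted p of at most 0.00235. In cortical culture *Fat3* read 9.95, 10.22, 10.26, 10.39 and 10.02 in *Fmr1*KO, against 11.00, 10.44, 10.59, 9.89 and 10.23 in WT (-0.26, not called). In the tissues it differed by 0.06 and 0.02. The difference in hippocampal culture minus that in primary hippocampus was -0.72 ± 0.22 (unadjusted p = 0.00223, adjusted p = 0.957), and *Fat3* was the 1 member called in that test, against 4.58% of all genes. That count was up to 4 without any 1 of 14 of the 22 arrays. In the same test for cortex the 1 member called was *Cdh18*, at background, against 4.64% of all genes, and its call was lost without any 1 of 8 of the 20 arrays.

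*Pcdh9* was called in both cultures. It read 9.75, 9.60, 9.83, 10.40 and 10.01 in *Fmr1*KO hippocampal culture, against 10.71, 10.26, 10.40, 10.04 and 10.31 in WT (-0.42 ± 0.19, unadjusted p = 0.0276, adjusted p = 0.499). In cortical culture it read 10.64, 10.88, 10.72, 11.15 and 11.24 in *Fmr1*KO, against 11.61, 11.46, 11.37, 11.32 and 11.22 in WT, where only the highest *Fmr1*KO array passed the lowest WT array. That difference was -0.47 ± 0.19 (unadjusted p = 0.0152, adjusted p = 0.426) and stayed under 0.05 without any single array, with 0.0483 as the highest p. In hippocampal culture the call was lost without *Fmr1*KO 2037, 2038 or 2221 or WT 2236, with p up to 0.0942. In the tissues *Pcdh9* differed by -0.16 and -0.12, which was not called.

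*Pcdh19* was the member that was higher in *Fmr1*KO hippocampal culture. It read 10.25, 10.72, 10.52, 10.57 and 10.62 in *Fmr1*KO, against 10.24, 10.54, 9.37, 9.65 and 10.13 in WT, where the arrays were more spread. The difference was 0.55 ± 0.21 (unadjusted p = 0.0129, adjusted p = 0.438), and without WT 2644 it was 0.40 (unadjusted p = 0.0708). *Cdh13* read 8.66, 8.99, 9.35, 10.06 and 8.73 in *Fmr1*KO hippocampal culture, against 10.24, 9.38, 10.22, 9.45 and 9.10 in WT, which overlapped widely (-0.52 ± 0.21, unadjusted p = 0.0173, adjusted p = 0.458). Its call was lost without *Fmr1*KO 2037 or 4236 or WT 2236 or 2644, with p up to 0.0832. *Pcdh17* read 9.96, 10.20, 10.48, 10.63 and 10.51 in *Fmr1*KO hippocampal culture, against 10.94, 10.68, 11.18, 10.96 and 10.36 in WT (-0.47 ± 0.21, unadjusted p = 0.033, adjusted p = 0.518). Its call was lost without any 1 of 5 arrays (*Fmr1*KO 2037 and 2038 and WT 2236, 2644 and 3569), with p up to 0.104. *Cdh17*, the sixth gene called there, was at background. The count of 6 was 3 without *Fmr1*KO 2037 and 2 without WT 2644.

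**Figure D5:**
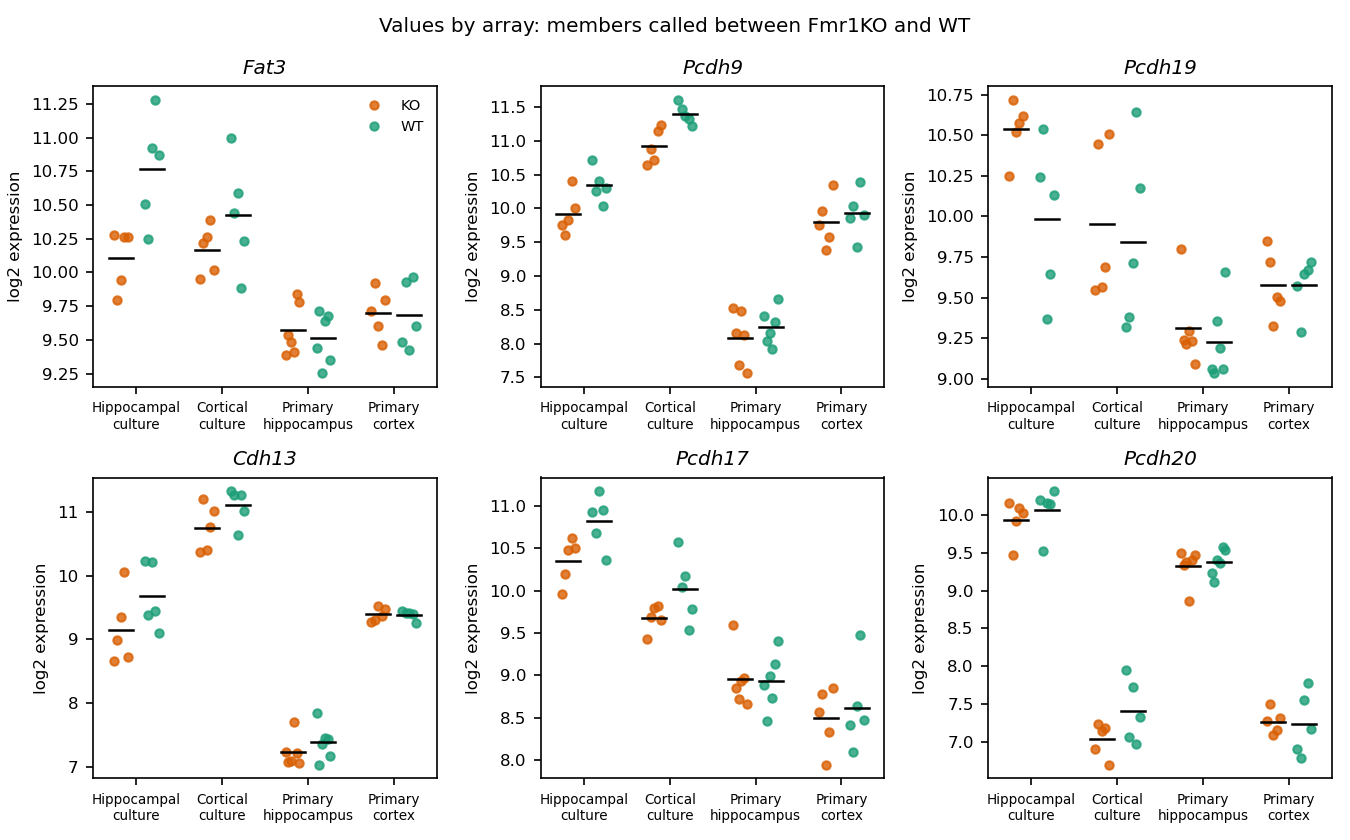
The log2 expression (y axis, a scale of its own in each panel) on each array of *Fmr1*KO (orange) and WT (green) for the 6 detected genes called between the genotypes, in the 4 systems (x axis), with black lines at group means. *Fat3* shows the clearest separation in hippocampal culture, with 1 WT array among the *Fmr1*KO arrays, and the genotypes overlap throughout in both tissues.

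*Pcdh20* was the other gene called in cortical culture. It read 6.91, 7.24, 7.15, 7.18 and 6.70 in *Fmr1*KO, against 7.95, 7.07, 7.73, 6.97 and 7.33 in WT (-0.38 ± 0.18, unadjusted p = 0.0396, adjusted p = 0.497). Its call was lost without *Fmr1*KO 2037 or 4236 or WT 2236 or 2644, with p up to 0.182, and the count of 2 in cortical culture was 1 without *Fmr1*KO 2037, 4 without *Fmr1*KO 2038 and 5 without WT 3569. In primary hippocampus the 1 gene called was *Cdh1*, at background (-0.16), a call lost without any 1 of 7 of the 12 arrays. Beside it 4 of 10 choroid plexus and 3 of 9 meninges markers were lower in *Fmr1*KO, and their part was not tested. In primary cortex the count of 0 was 1 without *Fmr1*KO 2038 or WT NT. Beside the calls in hippocampal culture, 5 of 9 immature neuron markers were higher in *Fmr1*KO, with an array mean of 10.32 to 10.76 in *Fmr1*KO and 9.81 to 10.75 in WT. Of 10 mature neuron markers none was called there, with array means of 9.97 to 10.30 in *Fmr1*KO and 9.67 to 10.59 in WT. The part of the immature neurons in the cadherin differences was not tested.

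The partners of the family were counted in the same fits, in which 72.1% of all genes passed between culture and tissue in hippocampus and 71.2% in cortex. Of 11 catenins and junction adaptors, 4 were higher and 5 lower in hippocampal culture than in primary hippocampus, and 4 higher and 3 lower in cortical culture than in primary cortex. Their median differences were -0.08 and 0.09, against 0.02 and 0.01 over all genes. *Ctnnb1*, the beta-catenin of both junctions and Wnt signaling, differed by -0.19 and -0.08, and only the first passed. *Vcl* (vinculin, which links catenins to actin) was higher by 1.40 and 2.12 and *Ctnnd1* (p120-catenin) lower by 0.76 and 0.58. *Ctnnd2*, the delta-catenin of neurons, was higher by 0.89 and 0.27 in the cultures and lower in primary hippocampus than in primary cortex by 1.21. Of 8 genes of the WAVE complex, 6 were higher and 1 lower in hippocampal culture and 5 higher and 2 lower in cortical culture, with *Cyfip2* higher by 1.28 and 0.56. Of 9 Fat and Dachsous partners, 1 was higher and 6 lower in hippocampal culture and 2 higher and 4 lower in cortical culture. *Tead2*, a DNA-binding partner of *Yap1*, was lower by 3.74 and 2.21, and *Yap1* differed by -1.44 in hippocampal culture. Between the tissues, *Yap1* and *Tead2* were higher in primary hippocampus than in primary cortex by 1.28 and 1.20. Of 8 genes for the shedding and turnover of cadherins 2 were higher in each culture, and 4 and 3 were lower. Of 6 nectins and nectin-like genes 5 and 3 were higher and none was lower.

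Of 18 other genes of the cadherin superfamily, 10 were higher and 1 lower in hippocampal culture and 8 higher and 2 lower in cortical culture. *Clstn1* and *Clstn3*, calsyntenins of synapses, were higher by 1.90 and 2.46 in hippocampal culture and by 1.85 and 2.32 in cortical culture. *Celsr1*, a planar polarity cadherin of progenitors, was lower by 1.58 and 1.49. *Pcdh11x*, a protocadherin whose symbol falls outside the rule, was higher by 3.64 in hippocampal culture and by 3.34 in cortical culture. *Cdhr1* averaged 7.07 in cortical culture, against 4.54, below background, in primary cortex.

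In the genotype comparison in hippocampal culture, where 6.87% of all genes were called higher and 2.67% lower in *Fmr1*KO, 0 of 11 catenins and adaptors were higher and 2 lower, and 2 of 8 WAVE genes were higher and 0 lower. Of the 18 superfamily genes 0 were higher and 1 lower, and 1 of 8 shedding genes was higher. *Arvcf* and *Pkp4*, catenins of the p120 family, were lower in *Fmr1*KO by 0.37 and 0.25, and *Brk1* and *Wasf3* of the WAVE complex were higher by 0.18 and 0.30. *Pcdh11x* was lower in *Fmr1*KO by 1.21 ± 0.43 (unadjusted p = 0.00746, adjusted p = 0.386). In cortical culture, where 10.2% of all genes were called and 4.05% were called lower, 4 of 18 superfamily genes were lower in *Fmr1*KO (*Cdhr2*, *Cdhr4*, *Dsg2* and *Dsc2*, all at background). There 1 catenin was higher (*Ctnna1*, by 0.62), 1 WAVE gene was higher (*Wasf2*, by 0.48) and 1 lower, and 1 shedding gene was higher (*Aph1a*, by 0.285). In primary cortex 1 superfamily gene at background, *Dsg1a*, was higher by 0.13, and no partner was called in primary hippocampus.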

How the data were processed

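RNA of 42 samples (100 ng each) had been hybridized to Affymetrix mouse genome arrays. The authors extracted and normalized the values with RMA in the Affy package and deposited them on a log2 scale, 1 value per probe set and array, and they were used without further scaling. RMA draws all arrays to 1 distribution (array medians 5.40 to 5.56), so a shift of most genes together would not show. Of 45101 probe sets 64 controls were left out, and 45037 were fitted with limma 3.58.1 in R 4.3.3, as 8 group means with eBayes (34 residual degrees of freedom). All 8 groups shared 1 spread per probe set. Of these probe sets 34945 had 1 gene, 932 several and 9160 none, and only the first were named. P-values were adjusted by Benjamini and Hochberg over all probe sets fitted. The threshold for KO minus WT was an unadjusted p under 0.05, which the study also used, while the rest of the contrasts needed an adjusted p under 0.05. No detection calls were used, and 5.17 served as background. The number of arrays limits the precision, and samples of a group carried different mouse IDs. The fit was checked on simulated data, for *Fmr1*KO against WT in hippocampal culture. The simulated noise was normal with 1 spread per probe set, so that check could not show the effect of unequal spreads between groups. Figures used Matplotlib 3.10.9 in Python 3.11.15.

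The mouse ID of the labels, which recurs across systems, was read as the litter, since each sample was pooled from littermates. Deviations of same-ID arrays from their group means correlated at 0.25 to 0.52 between the tissues (10 of 10 IDs over 0.1), at -0.12 to 0.58 between the cultures (9 of 10), and at a median of 0.02 to 0.07 between culture and tissue. The fits had no block, and litter as a block was an alternative. The study's methods speak of *Fmr1*KO and WT replicates handled as pairs within a day. The labels give neither pair nor day and the genotypes share no ID, so this pairing could not be used, and day effects within the *Fmr1*KO comparisons were not tested.

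The members and the lists of partners and markers were chosen with earlier results of these data known. Genes with full statistics were those called between *Fmr1*KO and WT, up to 6 genes with the largest called differences of 2-fold or more in each other comparison, and genes whose region difference changed by 1 log2 unit or more. Single statistics are given for other members to account for each. Of the partners, the 3 with the largest called differences were named in each comparison described. Further partners, the marker genes singled out and the promoters shown were chosen after their values were seen.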

Additional observations from a re-analysis of the deposited data

Results flagged for a closer look

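For 4 of the 19 genes whose difference between hippocampus and cortex changed in culture at an adjusted p under 0.05 in limma, the change was 1 log2 unit or more. It was 1.69 for *Cdh10*, -1.20 for *Fat1* and 1.06 for *Cdh9* on the log2 scale. For *Pcdh15* the fitted change was -2.79, but hippocampal culture and primary cortex were below background, and its size is known only as at least 1.74. The effect of *Fmr1*KO differed between culture and tissue at an unadjusted p under 0.05 by -0.72 for *Fat3* in hippocampus and by -0.19 for *Cdh18* in cortex, and neither passed after adjustment. *Cdh18* was at background in every group.

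Among 152 groups of 5 or 6 arrays of the 19 genes with full statistics, 12 held an array far from the others of its group, where chance gives about 1 in 20. *Fmr1*KO 4236 was lowest for *Fat1* in both cultures, at 9.79 in hippocampal culture (the others 10.77 to 11.13) and 10.66 in cortical culture (the others 11.65 to 11.70), and for *Cdh6* in cortical culture, at 6.55 (7.21 to 7.45). *Fmr1*KO 2037 was highest in primary hippocampus for *Pcdh17*, at 9.60 (8.67 to 8.97), and for *Pcdh19*, at 9.80 (9.09 to 9.30). *Fmr1*KO 2620 in primary hippocampus was highest for *Cdh13*, at 7.70 (7.06 to 7.22), and lowest for *Pcdh20*, at 8.87 (9.34 to 9.49). WT 2643 was lowest for *Pcdh10* in primary hippocampus, at 5.65 (6.50 to 6.85), and for *Pcdh20* in hippocampal culture, at 9.52 (10.15 to 10.32). *Fmr1*KO 2221 was highest for *Pcdh15* in cortical culture, at 7.20 (6.29 to 6.43). In primary cortex WT NT was lowest for *Cdh13*, at 9.26 (9.41 to 9.45), and highest for *Cdh1*, at 3.72 (3.47 to 3.50), which is at background.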

How the results depend on the processing

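The calls between culture and tissue and between the regions kept their direction and their side of the threshold for every gene with full statistics under each alternative and without any single array. The calls between *Fmr1*KO and WT kept their direction and often lost their call. At an adjusted p under 0.05 the counts of members called were 0 in hippocampal culture, cortical culture and primary hippocampus and 0 in both tests of the *Fmr1*KO effect between culture and tissue. With the arrays of a system fitted alone the count was 0 in primary hippocampus and 0 in the cortical test of culture against tissue, and *Cdh13* (unadjusted p = 0.11), *Cdh17* (unadjusted p = 0.0633), *Pcdh20* (unadjusted p = 0.0717), *Cdh1* (unadjusted p = 0.0874) and *Cdh18* (unadjusted p = 0.0793) lost their call. With array weights 3 members were called in hippocampal culture, where *Cdh13* (unadjusted p = 0.0887), *Cdh17* (unadjusted p = 0.12), *Pcdh17* (unadjusted p = 0.122) and *Pcdh19* (unadjusted p = 0.0623) lost theirs, and 4 in cortical culture, where *Pcdh20* (unadjusted p = 0.131) lost its own. With arrays centred on their medians *Cdh17* (unadjusted p = 0.127) and *Cdh18* (unadjusted p = 0.0652) lost their call. With each gene read on its probe set of smallest p the counts were 4 in cortical culture, 2 in primary cortex and 3 in the hippocampal test of culture against tissue, where a variance trend gave 2. Without dim probe sets primary hippocampus had 0, and without them or with arrays centred on their medians the cortical test had 0. Reading each gene on its probe set of smallest p can only keep or raise a count. Leaving out dim probe sets removed *Cdh1* and *Cdh18* themselves, which were at background. The cause of the other changes was not tested.

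Leaving out each array in turn gave 2 to 9 members in hippocampal culture, 1 to 5 in cortical culture, 0 to 1 in primary hippocampus and 0 to 1 in primary cortex for *Fmr1*KO against WT, and 1 to 4 and 0 to 2 in the hippocampal and cortical tests of culture against tissue. The other counts ranged over 25 to 25 (hippocampal culture against primary hippocampus), 27 to 30 (cortical culture against primary cortex), 17 to 19 (primary hippocampus against primary cortex), 14 to 17 (hippocampal culture against cortical culture) and 17 to 19 (change of the region difference). With litter as a paired replicate block the counts were 25, 29, 18, 15 and 18 in that order of comparisons, and as a random block the *Fmr1*KO counts were 6, 2, 1 and 0, so that no gene with full statistics changed its call. The random block used a correlation of 0.068 within mouse ID over all systems. Each mouse ID gave 1 array per system, so this block could change the *Fmr1*KO calls little. Genes near background have only lower bounds, since these values cannot tell a low level from none.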
